A study of Mus musculus with 8 samples.

Results

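Aminoacyl-tRNA synthetases join each amino acid to its transfer RNA, the step that fixes which amino acid a codon means. The 36 genes described here are 20 whose enzymes serve the cytosol and 16, with symbols ending in 2, whose nuclear-encoded enzymes are imported to serve translation inside mitochondria. They were chosen by symbol from the 54532 gene identifiers of the deposited count table. Of these, 35 matched directly and Mars1 was matched to the entry named Mars, which RefSeq lists as its synonym. All 36 passed the filter on low counts.

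The RNA came from LSK cells of mouse bone marrow (lineage-negative, Sca-1 positive and c-Kit positive), the fraction that holds blood stem cells and early progenitors. There were 3 libraries from AML1/ETO mice (genotype Runx1-Runx1t1, the fusion made by the t(8;21) translocation of acute myeloid leukaemia) and 5 from wild-type (WT) control mice. Both groups were of strain C57BL/6. Both had also been treated with poly(I:C), a synthetic RNA duplex that triggers an interferon response, in 4 injections of 5 mg/kg, and were killed 4 weeks later. The labels do not give the age of the mice, the driver of the fusion allele or any pooling of animals. They do not state that each replicate is another animal, and p-values therefore reflect only the spread between these samples, which may be technical.

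Library totals ran from 14693080 to 17527043 reads. Runx1t1, whose mouse gene can also take reads of the fusion, had 712 to 1971 reads with the fusion and 27 to 132 without it. The first libraries of both groups stood apart from the other 6 on the second principal component (14.3% of the variance). Xist had 28559 to 33151 reads with the fusion and 0 to 111 without it, and the Y-linked Ddx3y had 0 against 3688 to 5038, so genotype and the sex of the mice cannot be told apart. None of the 36 genes lies on X or Y. Of the LSK gate markers, 7 of 8 rose (87.5%, against 11.6% of all tested genes). Among them was Ly6a (the gene of Sca-1), at 221 to 921 CPM against only 8.26 to 23.4 CPM in the controls. CPM are read counts per library, scaled to a common library size and composition.

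Cytosolic synthetases fall into class I and class II by the fold of their catalytic domain. Eprs carries a glutamyl enzyme of the first kind and a prolyl enzyme of the second in a single chain. Some of the cytosolic enzymes are held with the scaffold proteins AIMP1, AIMP2 and EEF1E1 in the multi-synthetase complex. Kars and Gars each give rise to both a cytosolic and a mitochondrial enzyme and are counted as cytosolic here. When amino acids run short, uncharged transfer RNA activates the kinase GCN2, translation of the transcription factor ATF4 rises, and ATF4 with C/EBP partners binds C/EBP-ATF response elements near genes of amino acid synthesis, uptake and charging, several cytosolic synthetases among them.

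The core of that element, read as TGATGNAA, was searched on both strands in the RefSeq promoter windows of build GRCm38.p6, each from 250 bases before to 50 bases after a transcription start. A match describes letters in a window and does not show a bound site. A window was listed for 27 of the 36 genes, and there was none for Cars, Hars, Lars, Nars, Rars, Vars, Wars, Hars2 and Pars2. The motif was chosen with earlier results of these data known. The stretches that hold a match are shown, and all of them belong to cytosolic genes that were lower in AML1/ETO cells. Each runs 5′ to 3′ along the gene from 150 bases before the start through the first 30 transcribed bases, spans the first exon's beginning, and has the match in capitals:
Aars (chr8:111033692-111033871, plus strand): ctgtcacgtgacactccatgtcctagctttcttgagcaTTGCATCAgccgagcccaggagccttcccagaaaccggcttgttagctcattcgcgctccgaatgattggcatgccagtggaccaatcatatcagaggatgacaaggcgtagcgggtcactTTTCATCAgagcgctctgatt
Gars (chr6:55037851-55038030, plus strand): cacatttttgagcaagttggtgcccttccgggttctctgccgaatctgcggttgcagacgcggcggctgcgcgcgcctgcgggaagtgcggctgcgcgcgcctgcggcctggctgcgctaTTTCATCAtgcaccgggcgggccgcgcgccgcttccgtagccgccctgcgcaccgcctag
Iars (chr13:49681980-49682159, plus strand): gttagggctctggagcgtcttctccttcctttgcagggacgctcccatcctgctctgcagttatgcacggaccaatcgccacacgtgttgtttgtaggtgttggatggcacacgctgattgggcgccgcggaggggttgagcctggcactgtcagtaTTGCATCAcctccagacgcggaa
Tars (chr15:11399629-11399808, minus strand): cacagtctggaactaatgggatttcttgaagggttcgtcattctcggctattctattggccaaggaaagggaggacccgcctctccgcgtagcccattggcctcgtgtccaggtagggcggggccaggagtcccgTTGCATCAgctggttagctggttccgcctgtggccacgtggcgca
Yars (chr4:129189753-129189932, plus strand): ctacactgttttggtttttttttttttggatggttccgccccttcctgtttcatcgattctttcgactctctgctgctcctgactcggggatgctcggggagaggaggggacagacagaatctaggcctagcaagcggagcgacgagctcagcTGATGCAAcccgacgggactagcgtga

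Aars held 2 matches, with first bases at -112 and 10 (position 1 is the first transcribed base of the RefSeq entry), both on the opposite strand. In Gars, Iars and Tars the match also lay on the opposite strand, starting at -30, 8 and -15. Yars held it in the direction of the gene, starting at 4. Of 6 cytosolic genes that were called lower and had a window, 5 held the core, and Kars did not. Cars, Hars, Nars, Rars and Wars, also called lower, had no window, nor did Vars, the only cytosolic riser. The core was in none of the windows of the other 7 cytosolic genes and in none of the 14 mitochondrial genes with a window, which says only that those letters are not in those windows. Of all 32851 windows in the RefSeq set, 3.97% held it. No share was computed for other genes called lower, and a part of ATF4 in these falls was not tested.

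The study set AML1/ETO cells against control cells to find genes altered by the fusion. Among the cytosolic synthetases 11 of 20 fell and 1, Vars, rose. Of the mitochondrial ones 5 of 16 rose and none fell. Over all 15009 tested genes 25.7% passed the test, 14.2% as lower and 11.6% as higher (quasi-likelihood test in edgeR, p adjusted by Benjamini-Hochberg, threshold 0.05). The shares were 55% lower and 5% higher for the cytosolic genes, and 31.2% higher for the mitochondrial genes. For the mitochondrial count of 0 lower, 1 gene had an unadjusted p under 0.05, and DESeq2 and limma-voom also gave 0. The median log2 fold change was -0.73 over the cytosolic list, 0.57 over the mitochondrial list and -0.09 over all tested genes. Both lists were drawn up with earlier results of these data known, and neither was tested as a set.

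**Figure D1:**
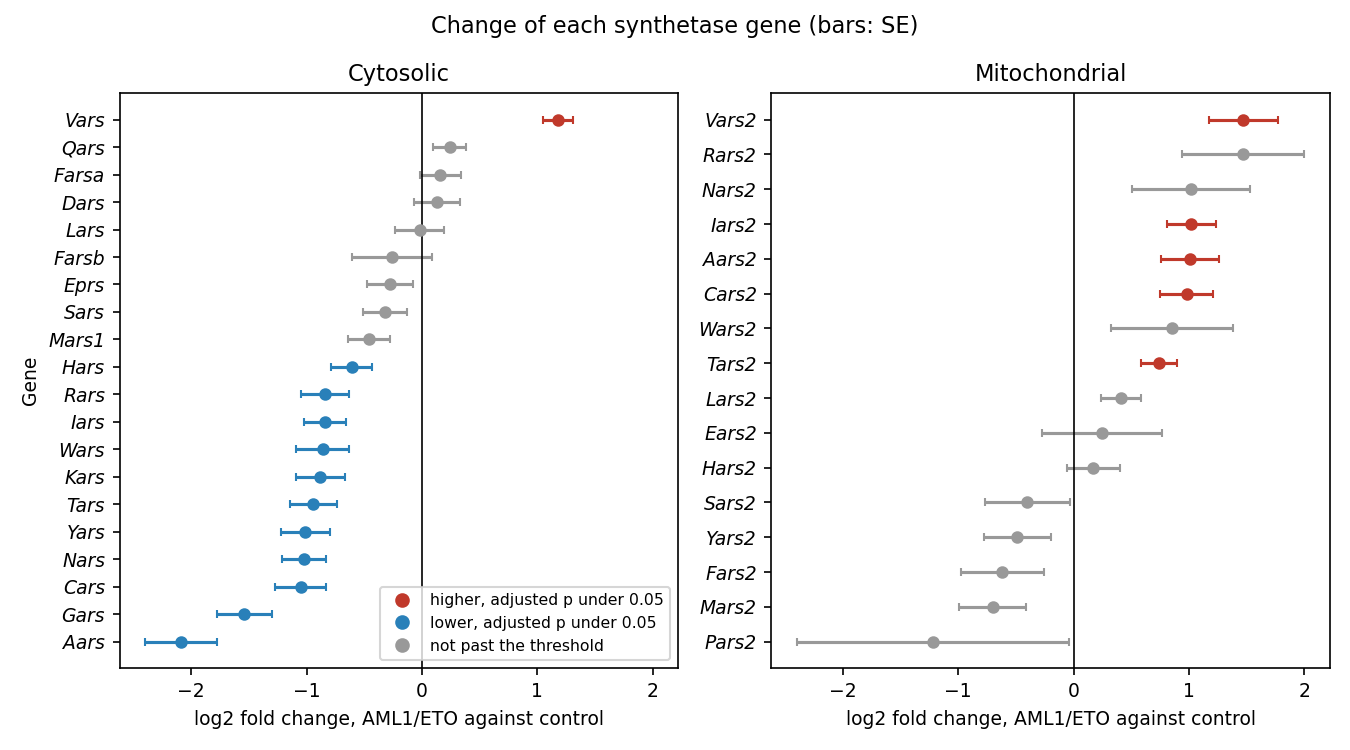
Log2 fold change of each gene in AML1/ETO against control libraries (x axis, bars are standard errors) for the 20 cytosolic (left) and 16 mitochondrial (right) synthetases. The 11 cytosolic genes that fell lie between -0.61 and -2.09, Vars stands alone at 1.18, and the 5 mitochondrial genes that rose lie between 0.74 and 1.47.

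Scaling by library totals alone moved the median of all genes by -0.146 on the log2 scale and gave 1407 higher and 2712 lower genes in place of 1734 and 2128. The synthetase counts then became 1 higher and 12 lower for the cytosolic and 5 higher and 1 lower for the mitochondrial enzymes. Leaving out the first library of both groups, a choice made after seeing the data, gave 8 mitochondrial genes as higher in place of 5. With the replicate number added to the fit as a block, 2 mitochondrial genes were higher and 9 cytosolic genes lower. In that fit control libraries 4 and 5, without an AML1/ETO library of the same number, do not inform the group difference.

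The deepest fall was that of Aars, the alanyl-tRNA synthetase (ENSMUSG00000031960, chromosome 8, 111033144 to 111057664 in mm10, plus strand). It stood at 150, 65.7 and 57.7 CPM in AML1/ETO libraries 1 to 3. In the controls it stood at 460, 453, 358, 371 and 299 CPM. Every AML1/ETO library lay below every control, and library 1 was the highest of its group. The mean of 91.2 ± 51.4 CPM (SD, n = 3) was 4.25-fold below 388 ± 68.1 CPM (SD, n = 5), or -2.09 on the log2 scale (SE 0.31, adjusted p = 0.000537).

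Gars, the glycyl enzyme (ENSMUSG00000029777, chromosome 6, 55038007 to 55079500, plus strand), came next. Its AML1/ETO values were 32.0, 67.1 and 58.2 CPM and its control values 172, 157, 154, 157 and 123 CPM. The groups did not overlap, and here AML1/ETO library 1 was the lowest, unlike for Aars. The fall was 2.91-fold (log2 fold change -1.54, SE 0.24, adjusted p = 0.000709).

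Cars, Nars and Yars, the cysteinyl, asparaginyl and tyrosyl enzymes, fell by about the same factor. Cars stood at 43.9, 63.9 and 67.0 CPM against 109, 143, 107, 150 and 94.4 CPM, 2.07-fold lower (adjusted p = 0.00443). For Nars the AML1/ETO values were 179, 110 and 106 CPM and the controls spanned 243 to 291 CPM with a median library at 271, a 2.03-fold fall (adjusted p = 0.00234). Yars stood at 83.5, 48.7 and 58.9 CPM against 134, 145, 133, 133 and 97.9 CPM, 2.02-fold lower (adjusted p = 0.00449). In each of these genes every AML1/ETO library lay below every control library.

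Tars, the threonyl enzyme, was at 61.8, 41.3 and 72.7 CPM against 99.7 to 122 CPM in the controls (1.92-fold lower, adjusted p = 0.00505). Wars, the tryptophanyl enzyme that interferon is known to induce, was at 29.6, 51.2 and 30.2 CPM against 60.6 to 75.6 CPM (1.81-fold lower, adjusted p = 0.0172). Without AML1/ETO library 3 the Wars call was lost (adjusted p = 0.0645, in a range of 0.00277 to 0.0728 over its alternatives). Hars, the histidyl enzyme, fell least, at 45.0, 38.7 and 41.1 CPM against 58.1 to 68.4 CPM (1.53-fold, adjusted p = 0.0253). Its call was marginal: without AML1/ETO library 2 or 3 or without control library 2, 3 or 4 it was lost at a log2 fold change of -0.61 to -0.54, against -0.61 with all libraries, with adjusted p up to 0.0805 among these (0.00778 to 0.127 over all its alternatives). Hars overlaps Hars2 by 198 bases on the opposite strand. Here and below, overlaps are between whole gene spans, introns included. Unless the counting used strand, the gene of a read in that overlap cannot be told.

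**Figure D2:**
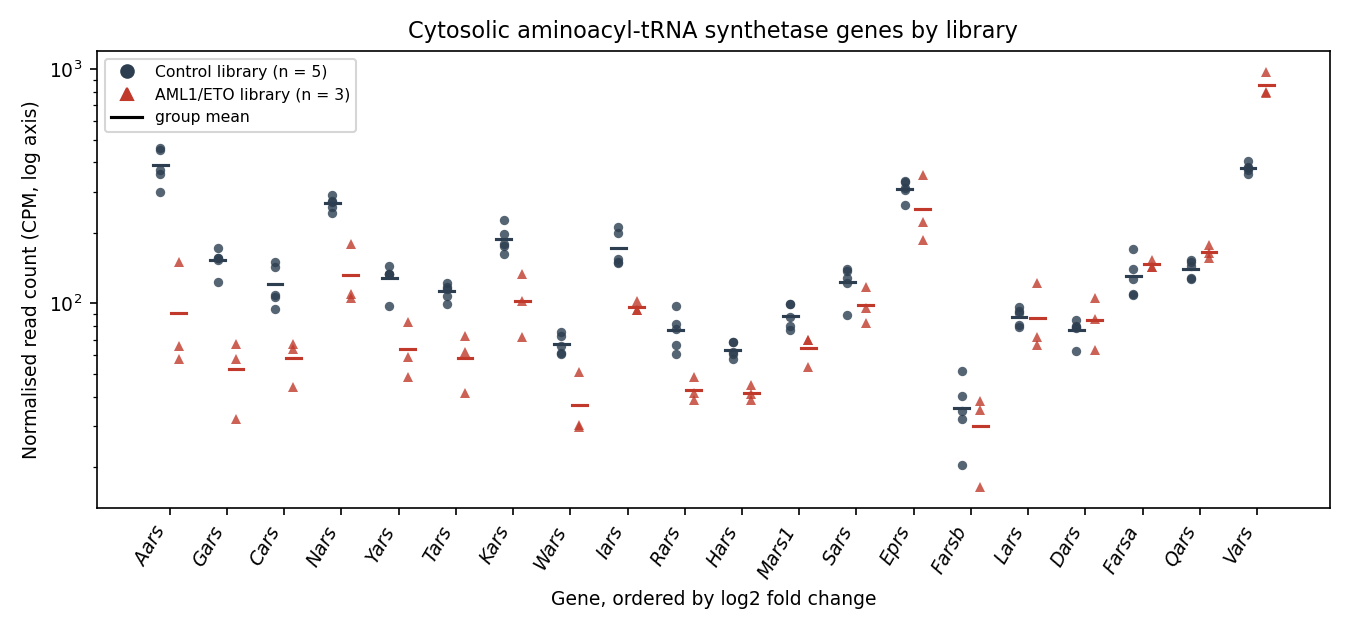
Normalised read count (CPM, log y axis) of the 20 cytosolic synthetase genes in each control library (circles) and each AML1/ETO library (triangles), with group means as lines and genes ordered by log2 fold change. For Aars the triangles lie between 57.7 and 150 CPM below all circles, and for Vars between 791 and 977 CPM above all circles.

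Of the 8 enzymes of the multi-synthetase complex 3 fell, Iars, Kars and Rars (37.5%, against 14.2% of all tested genes). All 8 belong to the cytosolic list, of which 55% fell, a larger share than in the complex. None of the 8 rose, at an unadjusted p under 0.05 or by DESeq2 or limma-voom either. Iars, the isoleucyl enzyme, was tightly grouped at 93.8, 102 and 93.4 CPM against 149 to 212 CPM in the controls (1.79-fold lower, log2 fold change -0.84, SE 0.18, adjusted p = 0.00435). Kars, the lysyl enzyme, stood at 71.6, 133 and 102 CPM against 163 to 227 CPM (1.85-fold lower, adjusted p = 0.00884). Rars, the arginyl enzyme, stood at 41.3, 48.7 and 38.7 CPM against 60.7 to 97.5 CPM (1.79-fold lower, adjusted p = 0.0107). The AML1/ETO and control values of all 3 genes were apart.

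The other members of the complex did not pass the test. Mars1, the methionyl enzyme, was at 70.0, 53.6 and 69.5 CPM against 76.7 to 99.5 CPM, without overlap but with adjusted p = 0.0798. It passed when libraries were scaled by their totals (adjusted p = 0.0217, with values up to 0.229 over its other alternatives). Mars1 shares 68 bases on the opposite strand with Ddit3, which rose. Eprs stood at 353, 186 and 223 CPM against 262 to 333 CPM. AML1/ETO library 1 lay above every control and libraries 2 and 3 below every control (adjusted p = 0.352), and without library 1 Eprs passed as lower (log2 fold change -0.60, adjusted p = 0.0140, with values up to 0.743 over its other alternatives).

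Lars, the leucyl enzyme, stood at 71.8, 66.5 and 122 CPM against 79.2 to 96.7 CPM, with AML1/ETO library 3 above and the other 2 below all controls (adjusted p = 0.963). Dars, the aspartyl enzyme, was at 63.0, 85.5 and 106 CPM against 62.5 to 85.1 CPM (adjusted p = 0.694). Qars, the glutaminyl enzyme, was above all controls in every AML1/ETO library, at 165, 156 and 177 against 127 to 154 CPM, yet the difference of 0.24 on the log2 scale did not pass (SE 0.14, adjusted p = 0.258). The 3 scaffold genes did not pass either: the log2 fold changes were -0.18 for Aimp1 (adjusted p = 0.623), -0.30 for Aimp2 (adjusted p = 0.734) and -0.44 for Eef1e1 (adjusted p = 0.627), with 0 of 3 called at an unadjusted p under 0.05 and 0 by DESeq2 or limma-voom.

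Outside the complex, 3 cytosolic genes did not pass. Farsa and Farsb encode the alpha and beta subunits of the phenylalanyl enzyme. Farsa was at 143, 154 and 143 CPM against 109 to 171 CPM (adjusted p = 0.583). Farsb was at 16.4, 35.0 and 38.5 CPM against 20.5 to 51.4 CPM (adjusted p = 0.663). Sars, the seryl enzyme, was at 82.4, 95.2 and 118 CPM against 89.1 to 140 CPM (adjusted p = 0.256). In all 3 the groups overlapped. By class, 5 of 9 class I (55.6%) and 6 of 10 class II genes (60%) fell. Both shares were near the 55% of the whole cytosolic list, against 14.2% of all tested genes. Vars was the only riser (11.1% of class I, near the 11.6% of all tested genes).

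Vars, the valyl-tRNA synthetase (ENSMUSG00000007029, chromosome 17, 35000987 to 35016322, plus strand), went the other way. It stood at 977, 801 and 791 CPM in AML1/ETO libraries 1 to 3 and at 381, 405, 378, 372 and 358 CPM in the controls. Every AML1/ETO library was far above every control, and the 5 controls were close together. The mean of 856 ± 104 CPM (SD, n = 3) was 2.26-fold above 379 ± 17.0 CPM (SD, n = 5), or 1.18 on the log2 scale (SE 0.13, adjusted p = 5.67e-05). Over the 17 alternatives the log2 fold change lay between 1.03 and 1.24 and passed each time. Vars made up 31.5% to 35.2% of the summed CPM of the cytosolic genes in the AML1/ETO libraries but 11.5% to 12.8% in the controls.

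Of the cytosolic genes, 12 of 20 had every AML1/ETO library below every control (17.5% of all tested genes) and 2 had every one above (14.1%). Summed over the 20 genes, the AML1/ETO libraries held 2773, 2404 and 2513 CPM and the controls 2798 to 3366 CPM. Without Vars the sums were 1796, 1603 and 1723 CPM against 2439 to 2961 CPM, wider apart than with it.

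Vars2, the mitochondrial valyl enzyme (ENSMUSG00000038838, chromosome 17, 35655634 to 35667592, minus strand), rose most among the mitochondrial genes that passed. It was at 55.7, 35.1 and 85.2 CPM in the AML1/ETO libraries and at 21.7, 25.3, 17.0, 25.6 and 16.6 CPM in the controls. The AML1/ETO libraries spread widely but none reached down to a control. The rise was 2.76-fold (log2 fold change 1.47, SE 0.30, adjusted p = 0.00356). Valine was the only amino acid among these pairs for which the cytosolic and the mitochondrial gene both passed as higher.

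Iars2, the isoleucyl enzyme of mitochondria, was at 225, 102 and 154 CPM against controls that all lay between 75.5 and 82.2 CPM. The mean was 2.02-fold higher (log2 fold change 1.02, SE 0.21, adjusted p = 0.00478). Iars2 overlaps Rab3gap2 by 2034 bases on the opposite strand (whole gene spans, introns included). Rab3gap2 also rose (log2 fold change 1.12, adjusted p = 0.00606). Unless the counting used strand, the gene of a read in the overlap cannot be told.

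Aars2, the alanyl enzyme, was at 63.5, 55.2 and 45.1 CPM against 35.7, 27.8, 25.3, 18.0 and 28.5 CPM (2.02-fold higher, adjusted p = 0.0110). Cars2, the cysteinyl enzyme, was at 51.7, 50.1 and 65.4 CPM against 25.5, 24.3, 27.8, 24.4 and 39.5 CPM (1.97-fold higher, adjusted p = 0.00957). It overlaps Naxd by 984 bases on the opposite strand, and Naxd fell (log2 fold change -0.69, adjusted p = 0.0342). Tars2, the threonyl enzyme, was at 94.2, 112 and 108 CPM against 55.3 to 71.5 CPM (1.67-fold higher, adjusted p = 0.00556). The groups were apart in each of these genes.

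Lars2, the leucyl enzyme, had all AML1/ETO libraries above all controls, at 152, 161 and 166 against 91.7 to 150 CPM, but did not pass (log2 fold change 0.41, adjusted p = 0.109). In all, 6 of 16 mitochondrial genes had every AML1/ETO library above every control (against 14.1% of all tested genes), and none had every one below (against 17.5%). Summed over the 16 genes the AML1/ETO libraries held 802, 736 and 864 CPM and the controls 508 to 581 CPM.

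**Figure D3:**
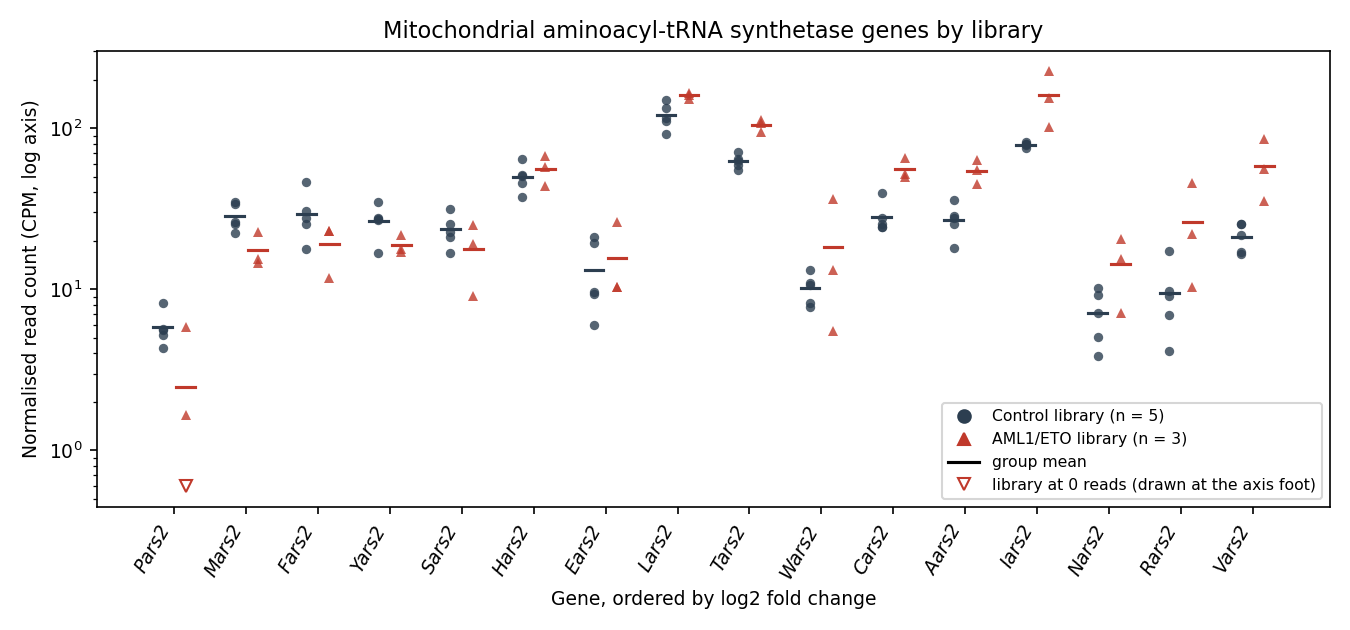
Normalised read count (CPM, log y axis) of the 16 mitochondrial synthetase genes in each control library (circles) and AML1/ETO library (triangles), with group means as lines and genes ordered by log2 fold change. Triangles lie above all circles for Lars2, Tars2, Cars2, Aars2, Iars2 and Vars2, and the open symbol marks Pars2 at 0 reads in AML1/ETO library 3.

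Among scarcer mitochondrial genes the AML1/ETO libraries scattered. Rars2, the arginyl enzyme, was at 10.4, 45.9 and 22.1 CPM against 4.13 to 17.4 CPM (log2 fold change 1.47, SE 0.53, adjusted p = 0.0623). Leaving out AML1/ETO library 1 gave a call (log2 fold change 1.84, adjusted p = 0.0171), as did leaving out control library 3 (1.83, adjusted p = 0.0345). DESeq2, limma-voom and the fit without a filter called it too, at 0.0331, 0.0210 and 0.0492, in a range up to 0.363. Nars2, the asparaginyl enzyme, was at 7.12, 15.5 and 20.4 CPM against 3.84 to 10.2 CPM (adjusted p = 0.168). Wars2, the tryptophanyl enzyme, was at 5.53, 13.1 and 36.3 CPM against 7.74 to 13.1 CPM (adjusted p = 0.276), and without AML1/ETO library 3 its log2 fold change turned from 0.85 to -0.13. AML1/ETO library 1 was the lowest of its group for all 3 genes.

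Mars2, the methionyl enzyme, was at 14.5, 15.4 and 22.7 CPM against 22.5 to 34.6 CPM (log2 fold change -0.70, adjusted p = 0.0947), so the groups met only at their edges. Fars2, the phenylalanyl enzyme, was at 11.7, 23.0 and 23.0 CPM against 17.9 to 46.3 CPM (adjusted p = 0.238). Yars2, the tyrosyl enzyme, was at 17.1, 21.8 and 17.9 CPM against 16.8 to 34.7 CPM (adjusted p = 0.251). These 3 genes overlapped between groups.

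Sars2, the seryl enzyme, was at 9.09, 25.2 and 19.1 CPM against 16.9 to 31.7 CPM (adjusted p = 0.485). Ears2, the glutamyl enzyme, was at 26.0, 10.3 and 10.4 CPM against 6.04 to 21.1 CPM (adjusted p = 0.793). Hars2, the histidyl enzyme, was at 57.1, 44.0 and 67.2 CPM against 37.4 to 64.7 CPM (adjusted p = 0.652). Pars2, the prolyl enzyme, was the scarcest, with 22, 93 and 0 reads in AML1/ETO libraries 1 to 3 and 74 to 143 per control library (adjusted p = 0.515). The 0 in AML1/ETO library 3 allows up to 3 reads, or 0.196 CPM, by counting error alone.

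To compare levels between genes, CPM were divided by the length in kilobases of all annotated exons of a gene. On this scale every cytosolic gene stood above every mitochondrial gene in the control means. The lowest cytosolic gene, Farsb, was at 13.7 ± 4.34 CPM per kb (SD, n = 5) and the highest mitochondrial gene, Hars2, at 11.6 ± 2.33, a gap within their spread. The median gene was at 23.9 CPM per kb among the cytosolic and 4.53 among the mitochondrial genes. In the AML1/ETO means these medians were 16.9 and 6.86 CPM per kb, and the lists interleaved. Aars went from rank 5 of 36 in the controls (41.8 ± 7.33 CPM per kb) to rank 25 in the AML1/ETO libraries (9.83 ± 5.53; SD, n = 3). Iars2 went from rank 24 (8.92 ± 0.271) to rank 10 (18.0 ± 6.92). Vars ranked first in both groups, at 67.5 ± 3.02 and 153 ± 18.6 CPM per kb. Many neighbours in this order differ by less than their SD, so single ranks are loose. They also depend on the length used, 18102 bases for Eprs and 11294 for Mars2. The transcripts present may be shorter than all annotated exons together.

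The balance between compartments was then read for each amino acid as the log2 CPM of the cytosolic gene minus that of the mitochondrial gene, for 17 pairs. No test was run on these differences, and no share over other gene pairs was computed. In 7 pairs every AML1/ETO library lay below every control, and in none did every one lie above. These pairs were those for alanine, cysteine, histidine, isoleucine, asparagine, arginine and threonine. For alanine the difference was 1.24, 0.25 and 0.35 in the AML1/ETO libraries against 3.39 to 4.35 in the controls. For threonine it was -0.61, -1.44 and -0.57 against 0.63 to 1.04, and for isoleucine -1.26, 0.00 and -0.72 against 0.86 to 1.42. Tars2 had more reads than Tars in all 3 AML1/ETO libraries, and Iars2 more than Iars in libraries 1 and 3 but not in library 2 (1633 against 1638 reads). In every control the cytosolic gene of both pairs had more reads. Reads are not scaled for exon length. Per kb, Tars2 also stood above Tars in all 3 AML1/ETO libraries, but Iars2 above Iars only in library 1 (25.3 against 17.8 CPM per kb). In library 3 Iars2 was at 17.4 and Iars at 17.7 CPM per kb. The overlap of Iars2 with Rab3gap2 applies here too. For asparagine the groups only just parted, with AML1/ETO library 1 at 4.63 and control library 1 at 4.64.

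**Figure D4:**
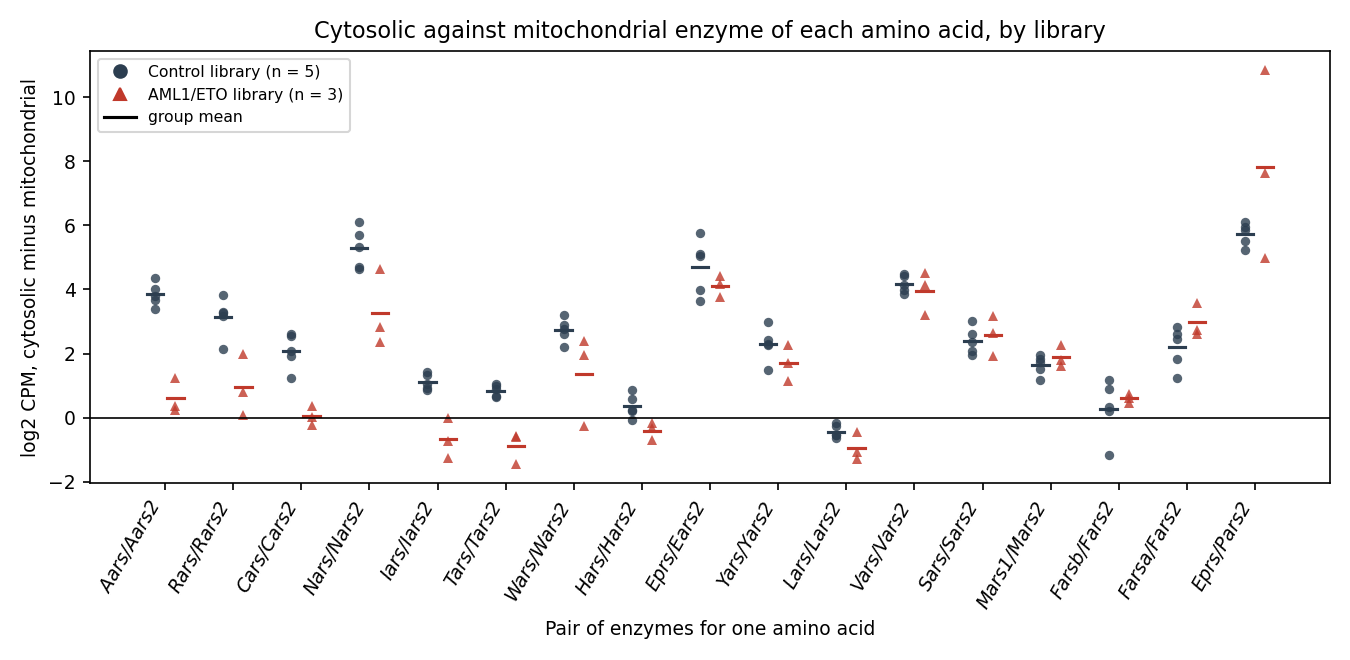
Difference in log2 CPM between the cytosolic and the mitochondrial gene of each amino acid (y axis) in every control (circles) and AML1/ETO (triangles) library, with group means as lines, for 17 pairs ordered by the difference between groups. Alanine (Aars/Aars2) moves from a control mean of 3.85 to 0.61, while valine (Vars/Vars2) is at 4.17 in the controls and 3.95 in the AML1/ETO libraries.

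For valine the difference was 4.13, 4.51 and 3.21 against 3.86 to 4.47, with overlap, and both of its genes had risen. The pairs for methionine, serine, leucine, tryptophan, tyrosine, glutamate, proline and phenylalanine overlapped too. Eprs against Pars2 reached 10.84 in AML1/ETO library 3, where Pars2 had 0 reads, so that value depends on the prior count of 2. Summed over each list, cytosolic CPM were 3.46, 3.27 and 2.91 times mitochondrial CPM in the AML1/ETO libraries, against 5.25 to 6.63 times in the controls.

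Of 12 cytosolic synthetases often listed as ATF4 targets (Aars, Cars, Eprs, Gars, Iars, Lars, Mars1, Nars, Sars, Tars, Wars and Yars), 8 fell (66.7%, against 14.2% of all tested genes). All 12 had a negative log2 fold change, with a median of -0.90 (-0.09 over all tested genes). They are all members of the cytosolic list, where 11 of 20 fell (55%). In that list 16 genes had a negative log2 fold change and the median was -0.73. Lars, at -0.02, turned positive under several alternatives. The other genes of the amino acid response moved in both directions: 8 of 17 fell (47.1%, against 14.2% of all tested genes) and 2 rose (11.8%, near the 11.6% of all tested genes), with a median of -1.02. Chac1, a glutathione-degrading enzyme, was without reads in all AML1/ETO libraries against 27.1 to 50.3 CPM, at least 194-fold lower with a floor of 3 reads per library. Phgdh, the first enzyme of serine synthesis, was at 52.9, 75.7 and 34.9 CPM against 272 to 345 CPM (log2 fold change -2.51, adjusted p = 2.62e-05). Sesn2, a leucine sensor upstream of mTORC1, was at 11.5 to 23.9 CPM against 60.8 to 115 CPM (log2 fold change -2.30, adjusted p = 0.000320). Mthfd2, a mitochondrial folate enzyme, was at 0.909, 10.2 and 2.29 CPM against 67.9 to 76.8 CPM (log2 fold change -4.03, adjusted p = 0.000627).

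Asns, the asparagine synthetase, had 0, 40 and 0 reads in the AML1/ETO libraries against 576 to 1072 in the controls (log2 fold change -5.71, adjusted p = 0.00179). The transcript of Atf4 itself did not pass (541 to 942 against 476 to 669 CPM, adjusted p = 0.207), nor did that of Eif2ak4, which encodes GCN2 (adjusted p = 0.885). The 2 genes that rose were Ddit3, which encodes CHOP (log2 fold change 1.26, adjusted p = 0.00186), and Slc3a2, the heavy chain of amino acid exchangers (1.01, adjusted p = 0.000960). The deposited table holds 2 identifiers named Ddit3, and the value is of ENSMUSG00000025408. Asns, Atf4, Eif2ak4, Ddit3 and Slc3a2 were picked after their values were seen, as was Eef1a1 among the elongation factors.

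Other genes of translation and transfer RNA maturation are given list by list, beside 11.6% higher and 14.2% lower over all tested genes. Of 4 genes that finish charging in mitochondria (Gatb, Gatc and Qrsl1 of the glutaminyl-tRNA amidotransferase, and Mtfmt, the methionyl-tRNA formyltransferase) 1 rose and none fell, at an unadjusted p under 0.05 or by DESeq2 or limma-voom either. That gene was Mtfmt, at 39.1, 48.2 and 36.9 CPM against 11.2 to 19.7 CPM (log2 fold change 1.45, adjusted p = 0.00243). Of 9 mitochondrial translation factors only Gfm1, an elongation factor, passed, and it fell (log2 fold change -0.81, adjusted p = 0.0398), while 2 were higher at an unadjusted p under 0.05, 1 by DESeq2 and 0 by limma-voom. The mitochondrial elongation factor Tufm was at 92.7 to 114 against 46.4 to 88.6 CPM and did not pass (log2 fold change 0.61, adjusted p = 0.0646). Among 5 cytosolic elongation factors Eef2 rose (0.44, adjusted p = 0.0241), Eef1d (-0.68, adjusted p = 0.0218) and Eef1g (-0.51, adjusted p = 0.0396) fell, and Eef1a1 did not pass (0.10, adjusted p = 0.575).

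In transfer RNA end processing 1 of 9 genes rose, Trmt10c, a subunit of mitochondrial RNase P (log2 fold change 1.08, adjusted p = 0.0202). Pop4, a subunit of nuclear RNase P, fell (-1.09, adjusted p = 0.00829), as did Hsd17b10, the partner of Trmt10c (-0.92, adjusted p = 0.0464). Hsd17b10 lies on X, and the groups also differed in sex. Of 4 proofreading genes none passed, with 2 lower at an unadjusted p under 0.05, 1 lower by DESeq2 and 0 by limma-voom. Dtd1, a D-aminoacyl-tRNA deacylase, was nearest (log2 fold change -1.43, adjusted p = 0.0506).

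Markers of other cells also moved between the groups, and their part in the synthetase values was not tested. The marker counts here and in the next paragraph stand beside 11.6% higher and 14.2% lower over all tested genes. Of 8 tested mast cell and basophil markers 6 rose (75%) and 1 fell (12.5%). The summed level of the 10 listed was 2517 to 6878 CPM in the AML1/ETO libraries against 35.2 to 93.9 CPM in the controls. Cma1, Tpsb2 and Mcpt4 were at 0 in all controls and Prss34 at 0 in all AML1/ETO libraries. Neutrophil markers summed to 172 to 1067 against 1161 to 3000 CPM (4 of 9 tested fell, with Cxcr2 at 0 in AML1/ETO). Most of that sum was Mpo, at 172 to 986 against 883 to 2268 CPM. Its groups overlapped and it did not pass (log2 fold change -1.28, adjusted p = 0.0721). Macrophage and monocyte markers summed to 38.7 to 58.0 against 167 to 359 CPM (4 of 7 fell; Cx3cr1 at 0 in AML1/ETO). B cell markers summed to 5.30 to 10.8 against 76.4 to 222 CPM (4 of 6 tested fell; Cd79a, Ms4a1, Pax5, Ebf1 and Ighm at 0 in AML1/ETO, and Ms4a1 in the controls too). In RNA from a sorted population, fewer cells of a type and less RNA per cell cannot be told apart.

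T and NK cell markers summed to 5.22 to 9.31 against 60.9 to 116 CPM, with Cd3e, Cd3d, Cd3g, Cd8a and Ncr1 at 0 in every library of both groups and 1 of 2 tested genes lower. That gene, Nkg7, made up nearly all of the sum, at 2.27 to 7.59 against 60.9 to 114 CPM. Erythroid markers summed to 73.9 to 102 against 84.1 to 157 CPM, most of it in the controls from Tfrc, which fell (31.1 to 69.3 against 76.6 to 140 CPM), while Hbb-bt rose (2.73 to 61.5 against at most 0.117 CPM) and 5 of 7 tested genes did not pass. Megakaryocyte markers summed to 191 to 641 against 202 to 350 CPM (1 of 4 tested rose and 2 fell). The riser, Itga2b, made up nearly all of the AML1/ETO sum, at 191 to 638 against 165 to 286 CPM, with overlap between groups (adjusted p = 0.0437). Gp9, Gp1bb, Ppbp and Vwf were at 0 in the AML1/ETO libraries, and Gp1bb and Ppbp in the controls too.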

How the data were processed

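The deposited values are raw read counts per Ensembl gene, 1 column per library and not pooled. Alignment with HISAT2 (2.0.5) to mm10 and counting with featureCounts (1.5.0-p3) are taken from the submitters' processing notes; the annotation release, strand setting and treatment of duplicate or multiply aligned reads were not stated there. Coordinates and exon lengths came from GENCODE M21 on GRCm38, the assembly mm10 denotes (54409 identifiers matched, 123 did not), and promoter windows from RefSeq GRCm38.p6.

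The test was that of edgeR (4.0.16, under R 4.3.3; filterByExpr, TMM scaling, glmQLFit and glmQLFTest, all 8 libraries, no covariates, two-sided, Benjamini-Hochberg over 15009 genes, threshold 0.05). CPM use TMM-scaled library sizes; log2 CPM of pairs use a prior count of 2. Standard errors were derived from the F statistic. Alternatives were DESeq2 1.42.0, limma-voom (limma 3.58.1), other scalings and filters, each library left out, and the replicate number as a block; leaving out both first libraries was added after seeing the data. The members, the other gene lists, the motif and the naming rule (all 36 genes, and up to 4 of each other list by smallest p) were chosen with earlier results of these data known. One of the listed marker genes is not reported here by name.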

Additional observations from a re-analysis of the deposited data

Results flagged for a closer look

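In 3 of the 36 genes 1 of the 5 control libraries lay far from the other 4, by Dixon's test at 95%, and chance alone flags about 1 group in 20. Dars was at 62.5 CPM in control library 1 and at 78.9 to 85.1 CPM in the others. Yars was at 97.9 CPM in control library 5 against 133 to 145 CPM. Cars2 was at 39.5 CPM in control library 5 against 24.3 to 27.8 CPM. Groups of 3 libraries were not examined in this way.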

How the results depend on the processing

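When 1 library was left out, the cytosolic counts ran from 9 to 12 lower and stayed at 1 higher, and the mitochondrial counts from 5 to 6 higher and 0 lower. Without both first libraries they were 12 lower, 1 higher and 8 higher, the last because Nars2, Rars2 and Wars2 also passed. Replicate numbers did not pair the samples (correlations of deviations for numbers 1, 2 and 3 of 0.039, -0.039 and 0.027). Control libraries 4 and 5 have no AML1/ETO library of the same number, so the block fit takes nothing on the group difference from them. With the replicate block 951 genes were higher and 1098 lower, 9 cytosolic genes lower and 1 higher, and 2 mitochondrial genes higher; the adjusted p of the genes then not called was 0.127 for Hars, 0.0728 for Wars, 0.0686 for Vars2 (log2 fold change 1.39), 0.0878 for Aars2 (0.89) and 0.0613 for Tars2 (0.76). Library totals gave 1 mitochondrial gene lower (Mars2, adjusted p = 0.0494, with values up to 0.288 over its other alternatives). Genes near 0 changed sign. Lars was at 0.05 with DESeq2 size factors and with DESeq2, 0.04 with upper-quartile scaling, 0.01 without a filter, 0.02 with 1 CPM in 3 libraries, 0.10 without both first libraries and -0.36 to 0.13 with 1 library left out. Dars was at -0.01 with library totals and -0.06 to 0.30 with 1 left out, and Ears2 at -0.16 without both first libraries and -0.35 to 0.53 with 1 left out. Leaving out 1 library gave -0.49 to 0.03 for Farsb and -0.13 to 1.28 for Wars2. The group difference in the pairs ran from -0.13 to 0.50 for Sars/Sars2, -0.50 to 0.15 for Vars/Vars2 and -0.04 to 0.55 for Farsb/Fars2. The cause of these changes was not tested. Few reads limit Pars2, Nars2 and Wars2.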
